A study of Mus musculus with 40 samples.

Results

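Laminins are the adhesive glycoproteins of basement membranes, each built from an alpha, a beta and a gamma chain, and a set of integrins on epithelial cells binds them. The genes described here are the laminin chains Lama3, Lamb3, Lama5, Lamb1 and Lamc1 and the integrin subunits Itga3, Itga6 and Itgb4. These 8 of the 21347 genes in the deposited expression table were chosen by name, with earlier results of these data known. The shares of all genes set beside their counts below are therefore a description, not a test. All 8 had a row and all 8 passed the filter on low values. Itgb1, the partner of Itga3, was not among those 8 genes and is given where a result turns on it.

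The series measured RNA in 4T1 cells, a mouse mammary carcinoma line first grown from a BALB/c tumour, cultured with or without T cells from the spleens of C57Bl6 mice. Of the 18 co-cultures, 3 were grown on a collagen I coat, 4 on collagen IV, 4 on a fibronectin coat, 3 on vitronectin and 4 on uncoated tissue culture polystyrene. Of the 22 cultures of 4T1 alone, 4 were grown on a collagen I coat, 4 on collagen IV, 5 on a fibronectin coat, 4 on vitronectin and 5 on uncoated plastic. The coats were applied at 250 µg/ml, carcinoma cells were seeded at 10k and T cells at 80k per cm2, and both arms received interleukin 2 at 30 U/mL for the 24 h of co-culture. Free cells and trypsinised cells of a well were pooled, so each co-culture library is a mixture of mouse carcinoma RNA and mouse T cell RNA, and libraries of T cells alone were not analysed here. The 40 libraries came from 5 experiments, numbered in the labels, and 4T1 is a single line, so the replicates are repeated cultures of 1 line.

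Laminin-332, which holds the chains that Lama3 and Lamb3 encode, anchors stratified and glandular epithelia to the basement membrane. Laminin-511, from Lama5, Lamb1 and Lamc1, is the broadly made laminin of adult basement membranes. The product of Itga3 pairs with that of Itgb1 and the product of Itga6 pairs with that of Itgb1 or Itgb4. The alpha6beta4 pair binds laminin-332 in hemidesmosomes, the junctions that tie keratin filaments to the basement membrane. Laminin-332 and its receptors have a long record in carcinoma cell adhesion and migration.

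In the RefSeq promoter table (GRCm38.p6, 250 bases before to 50 bases after a start), windows of 4 of the 8 genes were analysed. No window was looked up for Lama3. The windows of Lamb3, which with the experiment as a block passed the test on collagen IV, and of Lama5 and Lamb1, which passed no test between substrates, are printed because the substrate results below contrast these genes. Each reads 5′ to 3′ on the strand of its gene. Lamb3 spans chr1:193301744-193302043 on the plus strand, inside the GENCODE gene. Lama5 spans chr2:180225810-180226109 on the minus strand and Lamb1 spans chr12:31265043-31265342 on the plus strand. Capitals mark GC boxes.
Lamb3: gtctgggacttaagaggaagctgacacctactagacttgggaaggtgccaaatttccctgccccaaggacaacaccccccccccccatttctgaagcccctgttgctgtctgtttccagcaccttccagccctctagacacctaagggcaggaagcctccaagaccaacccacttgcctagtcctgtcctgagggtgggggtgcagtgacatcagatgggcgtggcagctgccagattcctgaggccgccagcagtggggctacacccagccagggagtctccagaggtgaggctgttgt
Lama5: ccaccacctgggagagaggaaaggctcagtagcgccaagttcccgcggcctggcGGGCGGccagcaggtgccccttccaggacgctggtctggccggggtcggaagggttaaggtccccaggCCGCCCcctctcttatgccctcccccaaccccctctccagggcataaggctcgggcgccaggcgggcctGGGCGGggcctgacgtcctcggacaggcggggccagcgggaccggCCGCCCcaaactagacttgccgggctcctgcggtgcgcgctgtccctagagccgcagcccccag
Lamb1: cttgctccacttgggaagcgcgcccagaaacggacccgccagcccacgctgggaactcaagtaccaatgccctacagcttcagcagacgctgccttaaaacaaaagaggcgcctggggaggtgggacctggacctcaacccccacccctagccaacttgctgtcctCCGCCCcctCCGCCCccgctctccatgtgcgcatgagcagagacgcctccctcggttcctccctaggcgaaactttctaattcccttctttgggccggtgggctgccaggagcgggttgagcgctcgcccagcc
Both strands were searched for the AP-1 motif TGANTCA, the GC box GGGCGG, the TATA box TATAAA and the E box CACGTG, none of which contains another. Lamb3 has 2 windows in the table, at 2 starts, of which the upstream one is printed, and each held none of the 4 motifs with a G and C content of 59.3%. The Lama5 window held 4 GC boxes with a G and C content of 72.7%, and the Lamb1 window held 2 GC boxes with 63.7%. Itga3, the other gene with windows analysed, also passed no test between substrates and has 2 windows, not printed. The first held 3 GC boxes with 66.7%, and the other held 1 GC box and 1 AP-1 motif with 52.3%. Among all 32851 windows of the table the median G and C content was 52.7%, a GC box was present in 35.7%, a TATA box in 13.6%, the AP-1 motif in 7.81% and the E box in 7.15%. A match is a match of letters and does not show that a factor binds there.

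In mm10 coordinates with GENCODE M21 gene models, Lama3 lies on chromosome 18 from 12333819 to 12583013 (plus strand) and Lamb3 on chromosome 1 from 193207699 to 193343878 (plus). Lama5 lies on chromosome 2 from 180176373 to 180225859 (minus), Lamb1 on chromosome 12 from 31265234 to 31329644 (plus) and Lamc1 on chromosome 1 from 153218922 to 153332786 (minus). Itga3 lies on chromosome 11 from 95044474 to 95076801 (minus), Itga6 on chromosome 2 from 71745616 to 71858416 (plus) and Itgb4 on chromosome 11 from 115974709 to 116008412 (plus). The library kit does not mark strand and the strand setting of the counting is not given in the sources used here, so reads of an overlapping gene on the other strand cannot be told apart. Such an overlap covers 197 bases of Lama3 exons (1.83% of their length, with the antisense gene Gm29200) and 537 bases of Itgb4 exons (7.66%, with the lincRNA B230344G16Rik). The exons of the other 6 genes overlap no annotated gene.

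Depth ran from 18.95 to 47.73 M reads in 39 libraries and was 239.13 M in the collagen IV co-culture of experiment 5, as recovered from the deposited values. Values are reads per M (the SI prefix mega) of scaled library size, written per M, and the lowest value of any of the 8 genes, Lama3 in the collagen IV co-culture of experiment 4, still rested on 223 reads. All 14 epithelial markers were in the table, 13 of them at a mean of 1 per M or more. The 20 T cell markers summed to 23.1 to 3764 per M in co-cultures and to 2.88 to 5.95 per M in 4T1 alone. The co-cultures of experiment 4 stood apart, at 1245 to 3764 per M of T cell markers with 1607 to 2484 per M of epithelial markers, against 27.5 to 352 per M of T cell markers in the 8 co-cultures of experiments 1 to 3 and 23.1 to 52.0 per M in the 5 of experiment 5. The labels also carry a tag of unstated meaning (none, R2 or R3). In experiment 4 all 5 libraries of 4T1 alone carried R3 while 4 co-cultures carried none and 1 carried R2, so tag and T cells cannot be told apart there. In experiment 2 all 5 co-cultures carried R2, while 4 libraries of 4T1 alone carried none and 1 carried R2. Only 4 of the 18 pairs with and without T cells shared a tag, so most T cell differences below also mix with the tag.

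**Figure D1:**
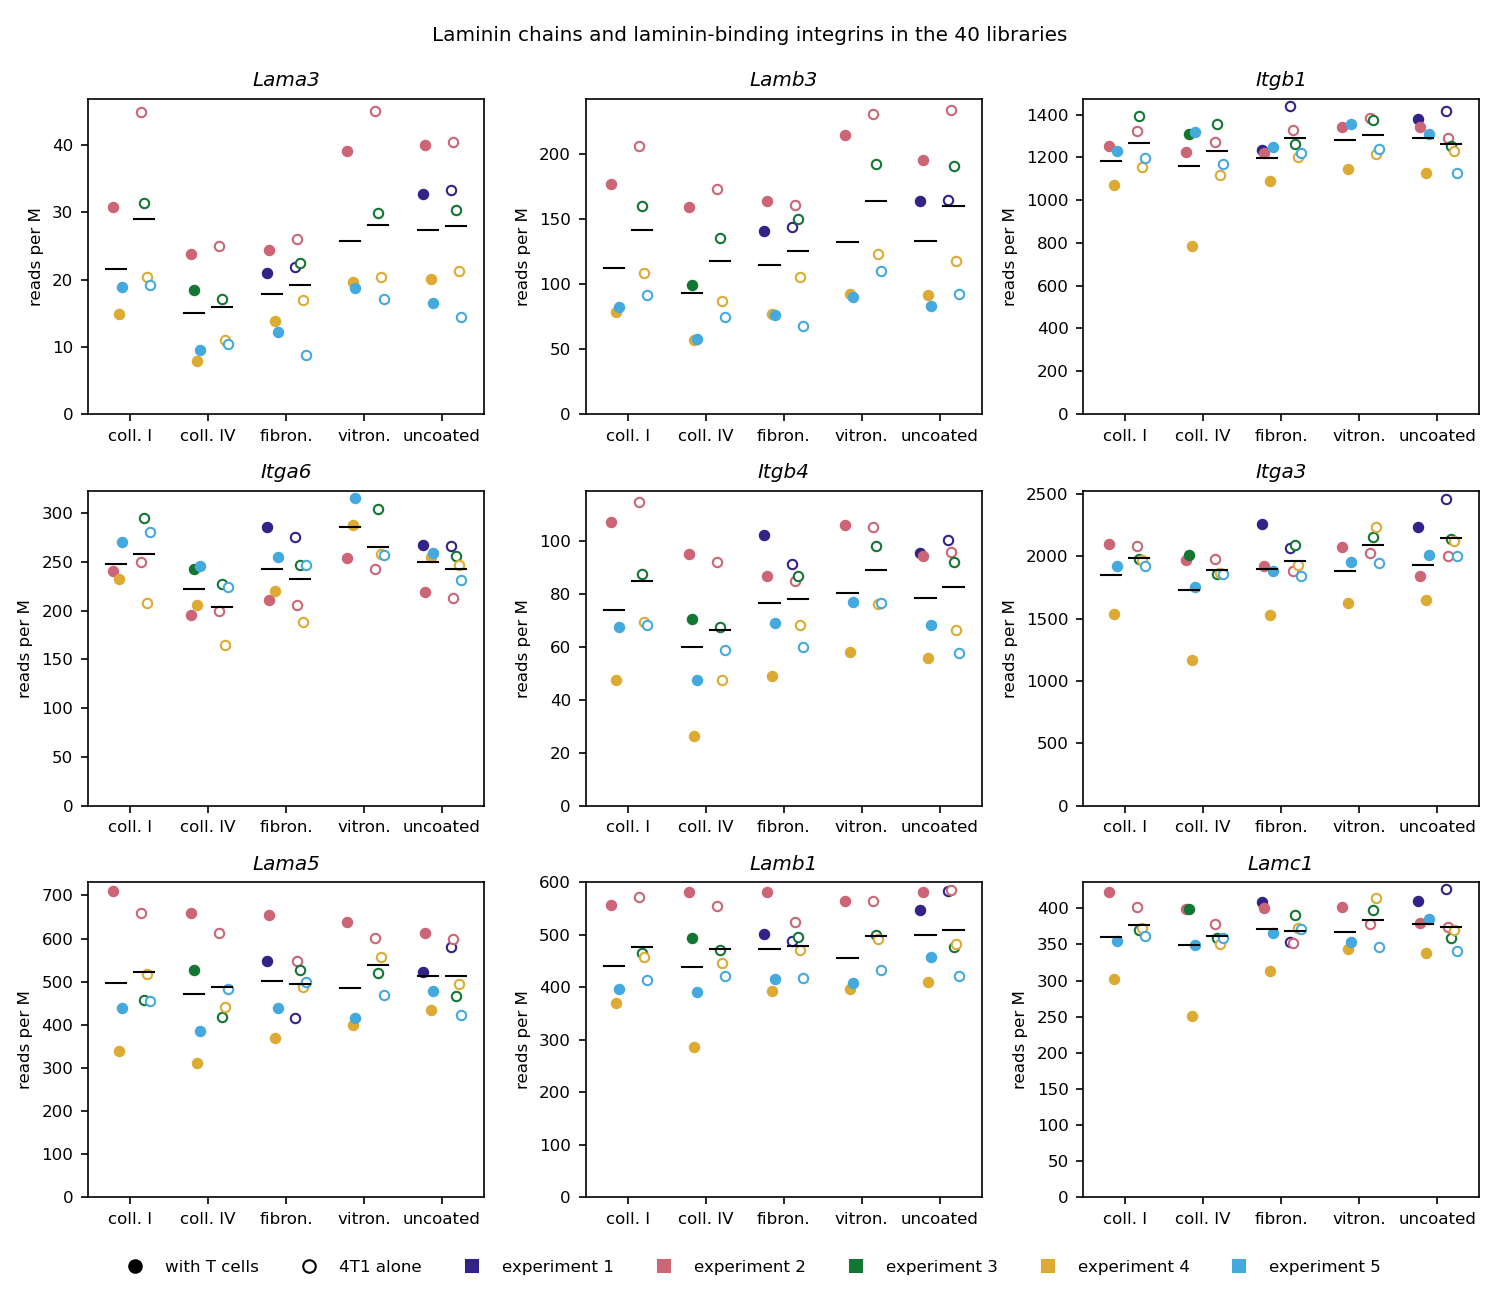
Expression (reads per M, axes from 0) of 9 genes in every library, by substrate. Filled points are co-cultures, open points 4T1 alone, colours the 5 experiments and bars group means. Lama3 and Lamb3 separate by experiment. In all 7 pairs their collagen IV point lies below the uncoated point of the same colour and arm.

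4T1 cells carried far more RNA per kb for Itga3 and Itgb1 than for the laminin chains among the 8 genes. Of those chains Lama3 had the least RNA per kb. Itga3 and Itgb1 encode the subunits of the laminin-binding integrin alpha3beta1, but the Itgb1 product has other partners, so these values give no amount of that pair. Per kilobase of exon, Itga3 averaged 354 ± 25.8 and Itgb1 312 ± 23.2 reads per M per kb in 4T1 alone (SD, n = 22 libraries each). The chains of laminin-511 lay close together, Lamb1 at 49.2 ± 5.56, Lamc1 at 45.1 ± 2.68 and Lama5 at 44.8 ± 6.03 per M per kb. These 3 levels differed by less than the spread of Lama5 and Lamb1.

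Itga6, the integrin alpha chain shared by both pairs, was at 26.6 ± 3.85 per M per kb in 4T1 alone (SD, n = 22). Lamb3 was at 21.4 ± 7.39, with a range that overlapped that of Itga6, and Itgb4 at 11.4 ± 2.51 per M per kb. Lama3 was lowest of these 9 genes, at 2.23 ± 0.966 per M per kb with a range of 0.822 to 4.19. The ranges of Lamb3, from 10.2 to 35.3, and of Lama3 did not overlap in these libraries. The Lama3 gene makes a long and a short transcript, which the gene-level values do not separate. Its level per kb rests on the union of its exons, 10.7 kb, and the level of the short form alone was not measured.

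**Figure D2:**
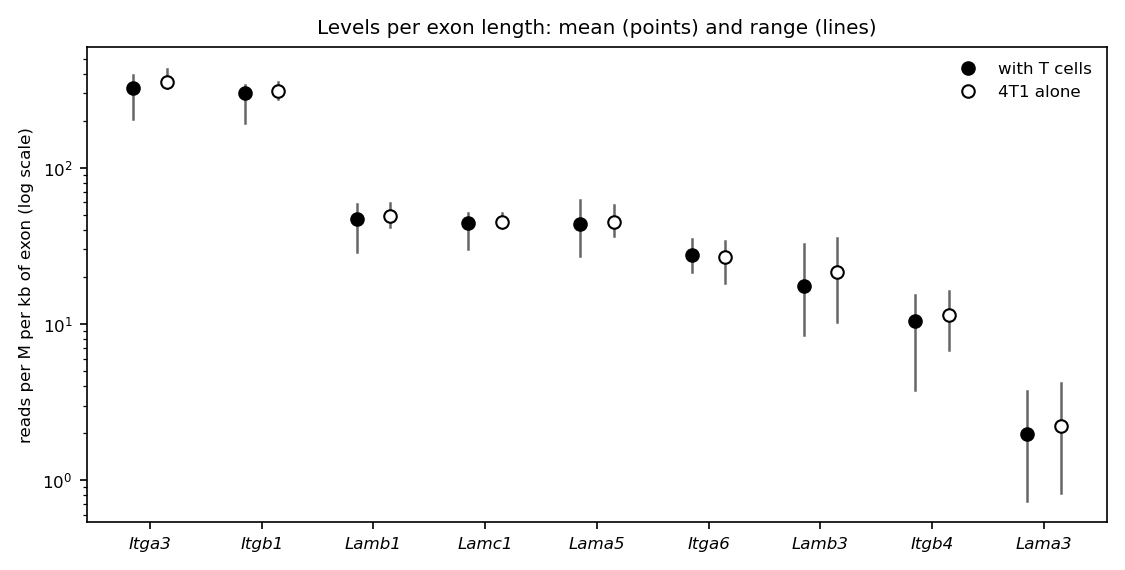
Level per exon length (reads per M per kb, log axis) of the 8 genes with Itgb1. Points are means and lines the range over libraries. In 4T1 alone the means run from 354 for Itga3 to 2.23 for Lama3.

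Of the laminin genes, those of laminin-332 varied most from culture to culture, and most of their variance lay between experiments. The SD of log2 values among the 22 libraries of 4T1 alone was 0.62 for Lama3 and 0.51 for Lamb3, against 0.19 for Lama5, 0.16 for Lamb1 and 0.08 for Lamc1. For Itgb4 it was 0.32, for Itga6 0.22 and for Itga3 0.10. In 4T1 alone, the experiment carried 66.0% of the variance of Lama3 and 83.8% of that of Lamb3, and the substrate carried 30.5% and 14.0% after the experiment was removed. In the co-cultures the experiment carried 62.6% for Lama3 and 88.5% for Lamb3, and the substrate 33.3% and 10.3%. These shares are a description of unequal numbers of libraries, with no test.

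Lama3 in 4T1 alone averaged 36.3 ± 10.0 per M in experiment 2 and 14.0 ± 4.38 per M in experiment 5 (SD over substrates, n = 5 each). Lamb3 averaged 201 ± 32.9 per M in experiment 2 and 108 ± 14.0 per M in experiment 4. The libraries of experiment 2 were high and those of experiments 4 and 5 low for both genes. Itga6 followed another order, with its highest value in 4T1 alone, 304.7 per M, in experiment 3 on vitronectin, and its lowest, 165 per M, in experiment 4 on collagen IV. Experiments 2, 4 and 5 hold all 10 groups, while experiment 1 holds 4 and experiment 3 holds 6. Each comparison below is given as differences within experiments beside the test over all libraries.

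The first question was whether the protein coat under 4T1 cells altered RNA for their own laminin and its receptors. Lama3 and Lamb3 were lower on collagen IV and on fibronectin than on uncoated plastic in every pair of the same experiment, with and without T cells. Itga6 and Itgb4 were higher on vitronectin in every pair, by smaller amounts, and Itga6 was lower on collagen IV in every pair. Itgb4 passed the F test over substrates given below neither with nor without the experiment as a block. The chains of laminin-511, Lama5, Lamb1 and Lamc1, and Itga3 passed no test between substrates. In limma on log2(value + 1) with group means alone, an F test over the 5 substrates called 0 of the 8 genes in co-cultures (0 at an unadjusted p under 0.05), where it called 0.129% of the 14701 genes tested, and 0 of 8 in 4T1 alone (1 at an unadjusted p under 0.05), where it called 0.252%. edgeR also called 0 of 8 in both arms. Here and below, the share of all genes called is at an adjusted p under 0.05, not at the unadjusted level. Counts of the 8 genes or of a list at the unadjusted level have no such share beside them, except where it is given. Without one, no result about those genes is read from them.

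With the experiment as a block, the same F test called Lama3, Lamb3 and Itga6, 3 of the 8 genes, in both arms, against 1.6% of all genes in co-cultures and 2.69% in 4T1 alone. For Lama3 the F value was 19.4 in co-cultures (limma, Benjamini-Hochberg adjusted p = 7.42e-05) and 22.2 in 4T1 alone (adjusted p = 1.49e-05). For Lamb3 it was 14.7 (adjusted p = 0.000454) and 13.9 (adjusted p = 0.000533), and for Itga6 it was 7.999 (adjusted p = 0.0181) and 10.0 (adjusted p = 0.00396). Itgb4 did not pass, at an adjusted p of 0.165 in co-cultures and 0.308 in 4T1 alone. Itga3, Lama5, Lamb1 and Lamc1 had adjusted p-values of 0.831 or more in both arms.

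The Lama3 call held in all 45 fits that left out 1 experiment or 1 library with the block. Lamb3 lost it in both arms without experiment 5 (adjusted p = 0.0835 in co-cultures and 0.0776 in 4T1 alone). Itga6 lost it in co-cultures without experiment 2 (0.207), 3 (0.104) or 5 (0.416) or without either of 2 vitronectin libraries (0.143 and 0.104), and in 4T1 alone without experiment 2 (0.0698), 3 (0.118) or 5 (0.0790).

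Lama3 RNA on collagen IV was 39.3% to 72.0% of that on uncoated plastic. The lowest value came from the co-culture of experiment 4, the library with the highest T cell marker sum, in which Itga3 was at 70.7% and Lamb1 at 70.0% of uncoated. The part of T cell RNA in that value was not tested, and in the other 6 pairs Lama3 was at 52.0% to 72.0%. In co-culture, Lama3 had 23.8 per M in experiment 2, 18.5 in experiment 3, 7.90 in experiment 4 and 9.57 in experiment 5 on collagen IV, against 32.8, 39.998, 20.1 and 16.6 per M in experiments 1, 2, 4 and 5 on uncoated plastic. In 4T1 alone it had 25.0, 17.1, 11.045 and 10.4 per M in experiments 2 to 5 on collagen IV, against 33.4, 40.4, 30.4, 21.3 and 14.4 per M in experiments 1 to 5 on uncoated plastic. The groups overlapped when experiments were mixed, and the collagen IV library was the lower one in 7 of 7 pairs of the same experiment. A gene was lower in all 7 such pairs for 2.33% of the genes tested. The mean difference was −0.90 ± 0.30 in co-culture (log2, SD, n = 3 pairs) and −0.70 ± 0.19 in 4T1 alone (n = 4 pairs).

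Lamb3, the beta chain of laminin-332, had 159, 99.2, 56.5 and 57.3 per M on collagen IV in co-cultures of experiments 2 to 5, against 163.5, 194.9, 91.2 and 82.6 per M on uncoated plastic in experiments 1, 2, 4 and 5. In 4T1 alone it had 173, 135, 86.5 and 74.3 per M on collagen IV in experiments 2 to 5, against 164, 233, 191, 117 and 92.3 per M on uncoated plastic in experiments 1 to 5. It was lower on collagen IV in 7 of 7 pairs, at 61.9% to 81.8% of the uncoated value. The mean difference was −0.50 ± 0.20 in co-culture (log2, SD, n = 3 pairs) and −0.42 ± 0.08 in 4T1 alone (n = 4 pairs).

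Without the block, limma called 0 of the 8 genes on collagen IV against uncoated plastic in both arms, with 1 at an unadjusted p under 0.05 in co-cultures and 2 in 4T1 alone, where edgeR also called 0 of 8. In that fit Lama3 differed by −0.87 ± 0.39 in co-cultures and −0.78 ± 0.37 in 4T1 alone (log2 ± SE, adjusted p = 1 in each). With the block, limma called 2 of the 8 genes, Lama3 and Lamb3, both lower, where it called 0.265% of all genes lower and 0.0204% higher in co-cultures, and 0.102% lower and 0.034% higher in 4T1 alone. Lama3 fell by 0.85 ± 0.12 in co-cultures (adjusted p = 0.000565) and by 0.71 ± 0.11 in 4T1 alone (adjusted p = 0.00182), where it ranked 5 among all genes by p. Lamb3 fell by 0.55 ± 0.09 in co-cultures (adjusted p = 0.00155) and by 0.38 ± 0.08 in 4T1 alone (adjusted p = 0.0389).

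In co-cultures the Lama3 call held in all 45 blocked fits that left out an experiment or a library, including those without the library of 239.13 M reads and without experiment 4, and Lamb3 lost it without experiment 5 (adjusted p = 0.0524). In 4T1 alone Lama3 lost it without experiment 3 (adjusted p = 0.112), and Lamb3 lost it in 17 of the 45 (highest adjusted p = 0.578). In 3 of the 7 pairs both libraries carried the same tag, and Lama3 was lower on collagen IV in 3 of 3 (mean −0.78), as was Lamb3 (mean −0.42).

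Itga6 was lower on collagen IV in 7 of 7 pairs, at 66.9% to 96.8%, without passing the test with the block in 4T1 alone (−0.21 ± 0.07, adjusted p = 0.285). Itgb4 was lower in 5 of 7 pairs, with a lowest value of 47.5% of uncoated in the co-culture of experiment 4, the library with the highest T cell marker sum. Its part in that value was not tested. Lama5 was lower in 4 of 7 pairs, Lamc1 in 4 of 7, Lamb1 in 6 of 7 and Itga3 in 6 of 7, none past the threshold.

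On fibronectin, Lama3 was at 60.9% to 79.6% of the uncoated value. In co-culture it had 21.036, 24.4, 13.9 and 12.1 per M on fibronectin, against 32.8, 39.998, 20.1 and 16.6 per M on uncoated plastic, in experiments 1, 2, 4 and 5. In 4T1 alone it had 21.9, 26.0, 22.5, 16.9 and 8.83 per M on fibronectin, against 33.4, 40.4, 30.4, 21.3 and 14.4 per M on uncoated plastic, in experiments 1 to 5. It was lower in 9 of 9 pairs, by a mean of −0.56 ± 0.12 in co-culture (log2, SD, n = 4 pairs) and −0.52 ± 0.14 in 4T1 alone (n = 5 pairs). A gene was lower in all 9 pairs for 0.918% of the genes tested.

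Lamb3 had 140, 163, 77.0 and 76.0 per M on fibronectin in co-culture, against 163.5, 194.9, 91.2 and 82.6 per M on uncoated plastic, in experiments 1, 2, 4 and 5. In 4T1 alone it had 144, 161, 150, 105 and 67.5 per M on fibronectin, against 164, 233, 191, 117 and 92.3 per M on uncoated plastic. It was lower on fibronectin in 9 of 9 pairs, at 68.8% to 92.0% of the uncoated value. In the 5 pairs that shared a tag, both Lama3 and Lamb3 were lower in 5 of 5, by a mean of −0.53 and −0.23.

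The limma test on fibronectin called 0 of 8 genes without the block in both arms, with 0 at an unadjusted p under 0.05, where it called 0% of all genes. With the block it called 0 of 8 in both arms, where it called 0% of all genes in co-cultures and 0.0068% in 4T1 alone. At an unadjusted p under 0.05 there were 2 of the 8 in each arm, a level to which those shares do not apply. The share of all genes at that level is not given, so no result is read from this count. edgeR called 0 of 8 in 4T1 alone with and without the block. In 4T1 alone the blocked differences were −0.52 ± 0.10 for Lama3 (adjusted p = 0.115) and −0.34 ± 0.07 for Lamb3 (adjusted p = 0.198), ranked 3 and 7 by p among all genes. In a blocked fit restricted to the 22 libraries without T cells, both passed (adjusted p = 0.0210 each), where that fit called 0.544% of all genes lower, 80 of 14701.

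**Figure D3:**
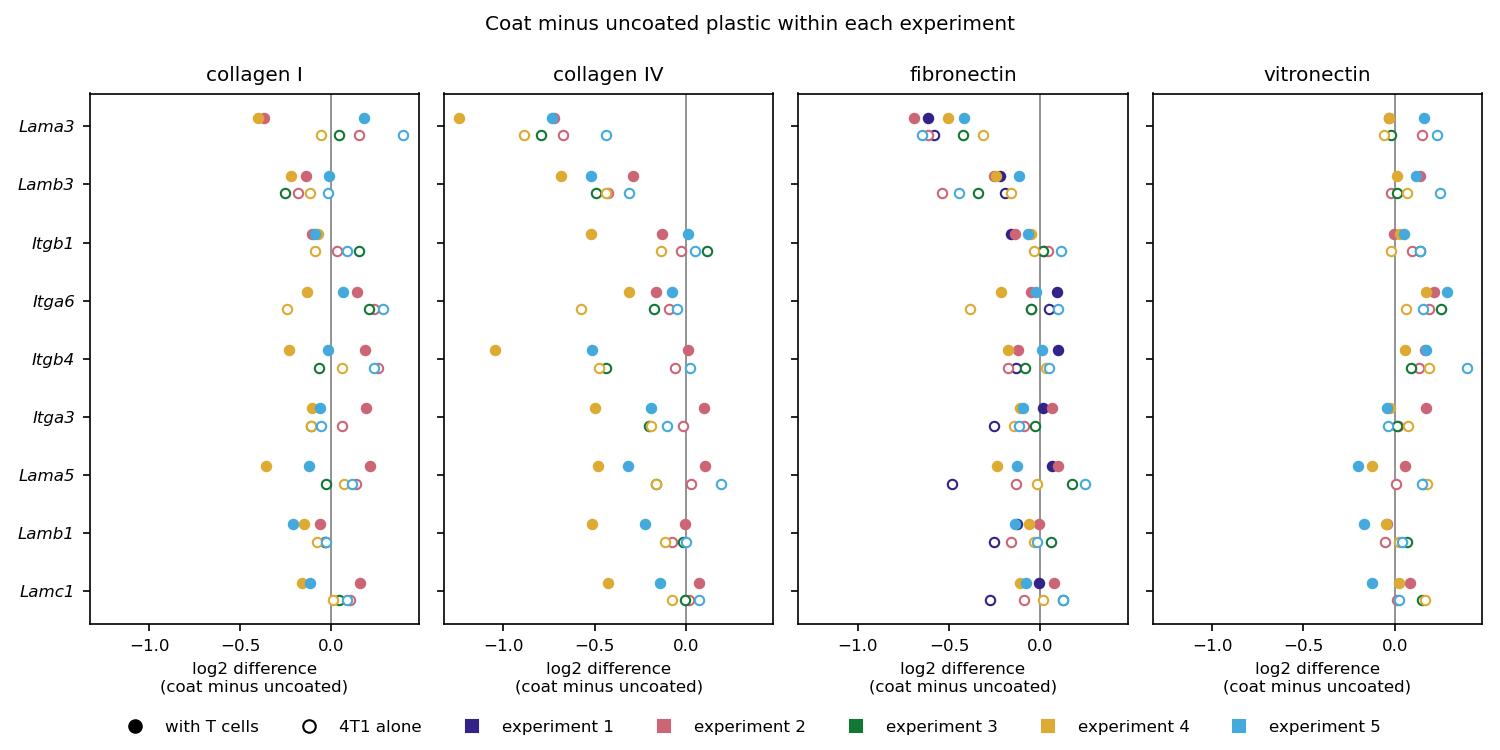
Difference between a coat and uncoated plastic in the same experiment (log2, x axis) for 9 genes, 1 panel a coat. Filled points are co-cultures and open points 4T1 alone. Lama3 and Lamb3 lie left of 0 in all 7 pairs on collagen IV and all 9 on fibronectin, while Itga6 and Itgb4 lie right of 0 in all 7 on vitronectin.

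Collagen I is the main fibrillar collagen of stroma, whereas collagen IV forms the networks of basement membranes. On collagen I, Lama3 was lower in 3 and higher in 4 of 7 pairs, at 74.4% to 134% of uncoated. Lamb3 was lower in 7 of 7 pairs, at 83.9% to 99.1%, and Lamb1 in 7 of 7, at 86.4% to 98.0%, where 2.46% of all genes were lower in every pair. limma called 0 of the 8 genes on collagen I in 4T1 alone (0 at an unadjusted p under 0.05, with and without the block), where it called 0.0952% of all genes without the block and 0.68% with it, and edgeR called 0 of 8.

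On vitronectin, Itga6 had 254, 288 and 316 per M in co-cultures of experiments 2, 4 and 5, against 219, 256 and 259 per M on uncoated plastic in the same experiments. In 4T1 alone it had 242, 304.7, 258 and 257 per M on vitronectin in experiments 2 to 5, against 213, 256, 247 and 231 per M on uncoated plastic. It was higher on vitronectin in 7 of 7 pairs, at 105% to 122% of uncoated, and Itgb4 in 7 of 7, at 104% to 132%, where 1.93% of all genes were higher in every pair. limma called 0 of the 8 genes on vitronectin in 4T1 alone, where it called 0% of all genes without the block and 0.0136% with it. edgeR called 0 of 8. At an unadjusted p under 0.05 limma held 0 of the 8 without the block and 1 with it. Lama3 was lower in 4 and higher in 3 of 7 pairs, and Lamb3 was higher in 6 of 7.

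The second question was whether adding T cells altered these genes in the mixture. Lamb3 was lower with T cells in 16 of 18 pairs of the same substrate and experiment, and Itga6 was higher in 15 of 18. Lama3 was lower in 14 of the 18 pairs, Lamb1 in 12, Lama5 and Itgb4 in 10 each and Lamc1 and Itga3 in 9 each, which include the 5 pairs of experiment 4, where all 6 of these genes were lower throughout. In a mixture, fewer carcinoma cells and less of an RNA per carcinoma cell cannot be told apart. T lymphocytes are known to carry integrin alpha6 themselves.

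Lamb3 in co-cultures ran from 56.5 to 215 per M with a median of 91.7 (n = 18), against 67.5 to 233 per M with a median of 140 in 4T1 alone (n = 22). The ranges overlapped widely. Within experiments the mean difference was −0.24 ± 0.20 (log2, SD, n = 18 pairs), and 5.44% of all genes were lower in 16 or more of the 18 pairs. By experiment the mean was −0.02 in experiment 1, −0.13 in experiment 2, −0.45 in experiment 3 with its single pair, −0.46 in experiment 4 and −0.16 in experiment 5. In the 4 pairs that shared a tag it was lower in 4 of 4, by a mean of −0.11.

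Itga6 in co-cultures ran from 195 to 316 per M with a median of 250 (n = 18), against 165 to 304.7 per M with a median of 247 in 4T1 alone (n = 22). The mean difference within experiments was +0.09 ± 0.11 (log2, SD, n = 18 pairs), and 9.92% of all genes were higher in 15 or more of the 18 pairs. Itga3 in co-cultures ran from 1167 to 2259 per M with a median of 1925, against 1844 to 2464 per M with a median of 1990 in 4T1 alone. It was lower in 9 and higher in 9 of the pairs.

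Averaged over substrates without the block, limma called 0 of the 8 genes with T cells added, where it called 25.2% of all genes, with 1 member at an unadjusted p under 0.05, and edgeR called 0 of 8. Lamb3 differed by −0.31 ± 0.18 (log2 ± SE, adjusted p = 0.190), Itga3 by −0.13 ± 0.06 (adjusted p = 0.0823) and Itga6 by +0.06 ± 0.06 (adjusted p = 0.427). With the block, limma called 3 of 8: Lamb3 fell by 0.24 ± 0.04 (adjusted p = 0.000119), Itga3 fell by 0.12 ± 0.05 (adjusted p = 0.0375) and Itga6 rose by 0.09 ± 0.03 (adjusted p = 0.0223). With the block 22.4% of all genes passed higher and 23.4% lower, so 1 gene higher and 2 lower of 8 is near the share of all genes. Lamb1 (adjusted p = 0.0693), Itgb4 (0.120), Lama3 (0.184), Lama5 (0.220) and Lamc1 (0.594) did not pass with the block.

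The Lamb3 call held in all 45 blocked fits that left out an experiment or a library (adjusted p from 1.97e-05 to 0.00577), and without experiment 4 the difference was −0.17 ± 0.04. Without experiment 4, Itga3 was at −0.0005 ± 0.03 (adjusted p = 0.994) and Itga6 at +0.06 ± 0.02 (adjusted p = 0.122), so both calls were lost. The Itga3 call was also lost without any one of 10 single libraries, 9 of them of experiment 4 (adjusted p from 0.0539 to 0.0809). The Itga6 call was also lost without experiment 5 (adjusted p = 0.0993) and without the library of 4T1 alone on collagen IV of experiment 4 (adjusted p = 0.0505). When values were scaled to the 14 epithelial markers, with the block, the median of all genes moved to +0.16, against −0.01 on the deposited scale. On that scale Lamb3 was at −0.07 ± 0.03 (adjusted p = 0.0551), Itga3 at +0.05 ± 0.03 (adjusted p = 0.0704) and Itga6 at +0.26 ± 0.06 (adjusted p = 0.00130).

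Experiment 4 held the lowest relative values of most of the genes. Its mean differences with T cells were −0.49 for Itgb4, −0.46 for Lamb3, −0.44 for Itga3, −0.43 for Lama5, −0.35 for Lamb1, −0.29 for Lamc1 and −0.25 for Lama3, each lower in 5 of 5 pairs, while Itga6 was at +0.18 and higher in 5 of 5. The mean log2 level of the T cell markers differed there by +5.78 and that of the epithelial markers by −0.45. In experiments 1, 2, 3 and 5 the T cell markers differed by +3.51, +1.31, +0.93 and +0.98 and the epithelial markers by −0.08, −0.12, −0.06 and −0.02. The part of either in the laminin and integrin values was not tested.

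**Figure D4:**
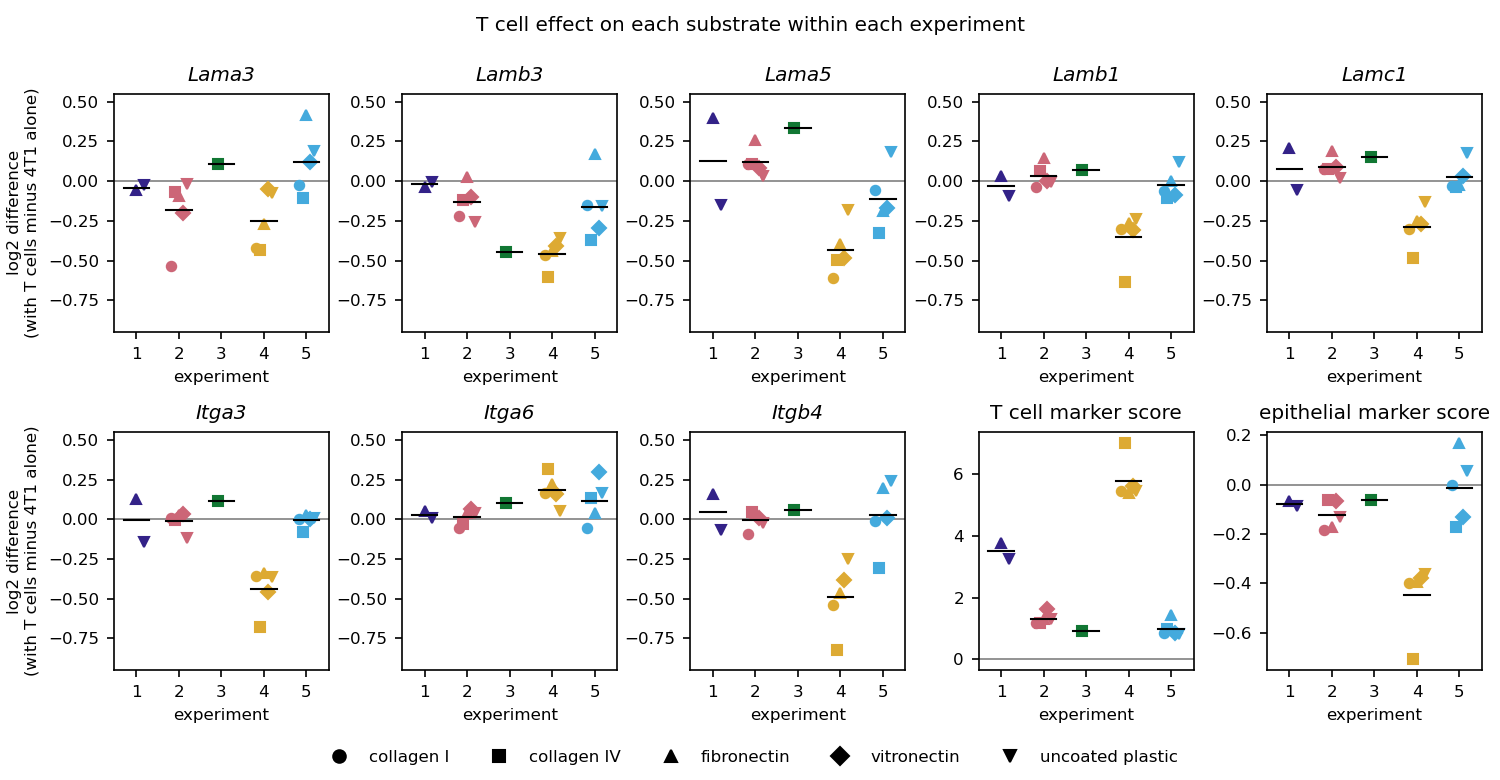
Difference between co-culture and 4T1 alone on the same substrate (log2, y axis) for the 8 genes and 2 marker scores, by experiment. Marker shapes are substrates and bars means. In experiment 4 the epithelial marker score averages −0.45, and 7 of the 8 genes lie below 0 in all 5 pairs while Itga6 lies above.

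The difference that T cells made was not shown to depend on the substrate. An F test of that dependence called 0 of the 8 genes and 0% of all genes in limma, with and without the block, and 0 in edgeR. At an unadjusted p under 0.05 it held 0 of the 8 genes and 53 of all genes without the block, and 0 and 301 with it. In edgeR the numbers of all genes at that level were 49 and 295.

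Other laminin chains gave few values. Of 5 listed, Lamb2 was tested, Lama2 and Lamc3 averaged under 0.1 per M in both arms, and Lama1 and Lama4 were not analysed here. Lamb2, the beta chain of laminin 521, did not pass with T cells added without the block, at a difference of −0.13 against a median of −0.01 over all genes tested. With the block it fell by 0.15 ± 0.05 (adjusted p = 0.0121). The lists in this and the next paragraphs were chosen by function, with earlier results of these data known. Each count with T cells added without the block stands beside the 25.2% of all genes called in that comparison.

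Of 10 other laminin receptors and partners, 1 fell with T cells and 9 did not pass, with a median of −0.08. The one that fell was Lgals3, galectin 3, which binds the sugars of laminin (−0.17 ± 0.06, adjusted p = 0.0492), at 83.7 ± 12.9 per M in co-cultures and 93.7 ± 10.99 per M in 4T1 alone (SD, n = 18 and 22). Scaled to epithelial markers with the block 6 rose and none fell, where 9390 of all 14701 genes passed higher and 50 lower. On the deposited scale with the block 5 fell and none rose, beside 23.4% of all genes lower and 22.4% higher. Sdc1, a heparan sulfate proteoglycan of epithelial surfaces, fell by 0.19 ± 0.04 (adjusted p = 0.000844), and Bcam, a receptor for the laminin alpha5 chain, fell by 0.18 ± 0.06 (adjusted p = 0.0197). Cd151, the tetraspanin partner of integrins alpha3beta1 and alpha6beta4, fell by 0.12 ± 0.04 (adjusted p = 0.0122). Itgb1 did not pass (−0.04 ± 0.04, adjusted p = 0.343).

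Of the 6 hemidesmosome genes, 5 were tested and Krt5 was not analysed here. None passed with T cells added without the block, where 3 were at an unadjusted p under 0.05, and the median was −0.11. With the block Krt14, a keratin of basal epithelial cells, fell by 0.40 ± 0.05 (adjusted p = 2.67e-06), at 128 ± 67.1 per M in co-cultures and 167 ± 63.3 per M in 4T1 alone. Col17a1, a transmembrane collagen of hemidesmosomes, was at 0.903 ± 0.292 per M in co-cultures and 1.11 ± 0.333 per M in 4T1 alone. The plakin linkers Plec and Dst did not pass.

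Of 16 basement membrane partners, 10 were tested, 1 fell and none rose with T cells, with a median of −0.15. Sparc, a matrix protein that binds collagen IV, fell by 0.23 ± 0.05 (adjusted p = 0.00421), at 209 ± 30.7 per M in co-cultures and 242 ± 19.8 per M in 4T1 alone. Scaled to epithelial markers with the block 1 rose and none fell, where 9390 of all 14701 genes passed higher and 50 lower. On the deposited scale with the block 7 of the 10 fell, beside 23.4% of all genes lower. Col7a1, the anchoring fibril collagen that binds laminin-332, fell by 0.33 ± 0.09 (adjusted p = 0.00513). Col4a1 and Col4a2, the main chains of collagen IV, fell by 0.18 ± 0.04 (adjusted p = 0.00142) and 0.17 ± 0.05 (adjusted p = 0.00430).

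Of 8 laminin-processing proteases, 5 were tested, 2 fell and none rose, with a median of −0.14. Bmp1, which trims laminin-332 chains, fell by 0.21 ± 0.07 (adjusted p = 0.0373), and Mmp14, a membrane metalloprotease that cleaves laminin-332, fell by 0.20 ± 0.05 (adjusted p = 0.0140). Between substrates, 2 proteases passed the F test in 4T1 alone even without the block, Mmp14 (F = 8.38, adjusted p = 0.0411) and Mmp3, stromelysin (F = 8.72, adjusted p = 0.0351), where that test called 0.252% of all genes. With the block Mmp3 fell by 1.64 ± 0.29 on collagen IV in 4T1 alone (adjusted p = 0.00785) and Mmp14 rose by 0.52 ± 0.09 on collagen I (adjusted p = 0.00260).

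Of 14 integrin adhesion signalling genes, all were tested, 2 rose and 1 fell with T cells, with a median of −0.11. Fermt3, the kindlin of blood cells, rose by 1.78 ± 0.40 (adjusted p = 0.00549), at 10.4 ± 17.6 per M in co-cultures and 0.502 ± 0.117 per M in 4T1 alone. Fyn, a Src family kinase that T cells use in receptor signalling, rose by 0.44 ± 0.15 (adjusted p = 0.0330), and Src fell by 0.17 ± 0.06 (adjusted p = 0.0414). All 20 T cell markers rose in the same comparison and 4 of the 14 epithelial markers fell, and the part of these cells in the list values was not tested.

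Among 9575 genes with a mean of 10 per M or more in 4T1 alone, those most like Lamb3 after the experiment means were removed were Stard10 (r = 0.929), Sdc1 (r = 0.895), Tes (r = 0.888), Lama3 (r = 0.886) and Fxyd5 (r = 0.875), over 22 libraries. Without removing them the same r was 0.854, 0.948, 0.685, 0.946 and 0.903. The libraries share experiments, depth and the scaling of the table, so these are descriptions with no test. Within experiments the chains of laminin-511 had a lower r with Lamb3, 0.574 for Lamb1, 0.323 for Lama5 and 0.270 for Lamc1. With the experiments left in, r was 0.861 for Lamb1, above that of Stard10 and Tes, 0.569 for Lama5 and 0.397 for Lamc1.

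Most like Itgb4 within experiments were Lgr6 (r = 0.932), Angptl2 (r = 0.923), Map3k5 (r = 0.923), Tns4 (r = 0.909) and Sh3kbp1 (r = 0.908). With the experiments left in, r was 0.305, 0.844, −0.029, −0.199 and 0.816, so 2 of the 5 likenesses were absent from the raw values. Itgb4 was close to Lama3 (r = 0.815 within experiments, 0.914 raw), to Itga6 (0.781 and 0.458) and to Lamb3 (0.776 and 0.904).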

How the data were processed

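RNA sequencing of 40 libraries was analysed. Per the submitters' processing notes, reads were processed with STAR 2.6, featureCounts (version not given) and edgeR 3.31.7 on mm10; the order, options and annotation are not given in the sources used here. The authors deposited 1 table of normalised signal per gene and library. Its values behave as reads divided by a library size, scaled, in M: column sums were 956225 to 1037118, and 100% of values became whole reads within 0.01 reads. Of 21349 lines, 1 duplicate line and 1 gene without a value in number form were dropped, leaving 21347 genes, and 0 columns of values went unused.

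Genes at 1 per M or more in at least 3 libraries (14701) were tested with limma 3.58.1 (R 4.3.3, trend) on log2(value + 1), with 10 group means fitted over all 40 libraries (30 residual degrees of freedom), Benjamini-Hochberg adjustment over all genes tested and a threshold of 0.05. The offset of 1 understates changes of low genes. The T cell comparison averages co-culture minus 4T1 alone over the 5 substrates. The labels give the replicate number as the experiment, so equal numbers pair libraries: deviations from group means correlated at a median r of 0.478 in 156 pairs of the same experiment, against −0.131 in 562 other pairs, and 37 of 40 libraries were closest to one of their own experiment. A fit with the experiment as a block (26 residual degrees of freedom) is therefore given wherever it changes a call. edgeR 4.0.16 was run on the recovered reads. The fits were tested on simulated data that held T cell differences but no experiment effect and no coat difference. How the fits behave with those was not tested.

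Adjusted p-values weigh a difference against the spread between repeated cultures of 1 line. Without the block that spread includes the differences between experiments, and with the block it is only what remains within experiments. Levels per kb use the union of GENCODE M21 exons. The 8 genes and all lists were chosen with earlier results of these data known. Named genes are the 8, Itgb1, up to 4 members of each list with the largest difference among those called, and the 5 genes most like Lamb3 and Itgb4; further genes, the coat comparisons within co-cultures and the comparison of tags were chosen after values were seen. A further gene that the rule names is not reported here. Alternatives were other offsets, filters, scalings and tests, the block, and each experiment and library left out. A count of 0 in a library allows up to 3 reads, 0.0124 to 0.158 per M. Intervals and floors cover counting error only.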

Additional observations from a re-analysis of the deposited data

Results flagged for a closer look

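Itga3 in 4T1 alone on collagen IV had 1980.295 per M in experiment 2, against 1857 to 1865 per M in experiments 3 to 5, and that library lay far from the other 3 for the range of the group. It was 1 of 64 groups of 4 or 5 libraries examined, and chance alone sets apart about 1 in 20 such groups.

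The difference that T cells made to Lama5 was −0.43 in experiment 4, lower in 5 of 5 pairs, and +0.12 in experiment 2, higher in 5 of 5 pairs. The gap between the experiments was −0.5523 on the log2 scale. For Lamc1 the means were −0.29 in experiment 4, lower in 5 of 5, and +0.09 in experiment 2, higher in 5 of 5, with a gap of −0.376. Neither gap was tested, and in both experiments the tag differed between most co-cultures and their libraries of 4T1 alone. The mean log2 level of T cell markers differed between co-culture and 4T1 alone by +5.78 in experiment 4 and +1.31 in experiment 2, and that of epithelial markers by −0.45 and −0.12, and their part in these gaps was not tested.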

How the results depend on the processing

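The number of genes called with T cells added, 3710 over all genes tested, was 6726 with the replicate block, 6695 in edgeR with the block, 1535 with the block and no experiment 4, 575 when scaled to epithelial markers and 9440 with that scaling and the block. For collagen I in 4T1 alone the count of 14 was 100 with the block, 97 in edgeR with the block, 256 with the block and no experiment 4, 29 in the libraries of 4T1 alone and 461 there with the block, 127 with the epithelial scaling and block, 3 with that scaling alone, 5 after quantile normalisation and 7 with no filter. For collagen IV the count of 1 was 20 with the block in limma and in edgeR, 7 without experiment 4, 210 in 4T1 alone with the block, 25 with the epithelial scaling and block, 0 with that scaling alone, and 2 with an offset of 0.1 and in edgeR with either scaling. For fibronectin the count of 0 was 1 with the block in limma and in edgeR, 6 without experiment 4, 129 in 4T1 alone with the block and 5 with the epithelial scaling and block. For vitronectin the count of 0 was 2 with the block, 4 without experiment 4, 2 in 4T1 alone with the block, and 1 in edgeR with the block and with the epithelial scaling and block.

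The F test over substrates in co-cultures called 19 genes, against 235 with the block, 222 in edgeR with the block, 227 without experiment 4, 203 with the epithelial scaling and block, 3 with that scaling alone, 8 after quantile normalisation, and 12 with no filter or with a mean of 10 per M or more. In 4T1 alone it called 37, against 395 with the block, 377 in edgeR with the block, 497 without experiment 4, 97 in 4T1 alone and 1444 there with the block, 333 with the epithelial scaling and block, and 13 with that scaling alone or after quantile normalisation.

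Of the 8 genes, 0 were called with T cells added, against 3 with the block in limma and edgeR and 1 without experiment 4 (Lamb3). With the epithelial scaling and block 3 were called, all higher (Lamb1, Lamc1 and Itga6). That fit called 9390 of all 14701 genes higher and 50 lower. On collagen IV 0 were called, against 2 with the block in limma, in edgeR, in 4T1 alone and with the epithelial scaling, and 1 without experiment 4. On fibronectin 0 were called, against 2 with the block in 4T1 alone, without experiment 4 and with the epithelial scaling. On collagen I 0 were called, against 1 with the block and no experiment 4 (Itga6, +0.24). Beside these, the calls within co-cultures on collagen IV and the F tests over substrates (both given above), the block changed no call of the 8 genes in limma, and the test of whether the T cell difference depended on the substrate called 0 genes throughout.

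Differences with T cells that were below 0 turned above 0 as follows. When scaled to epithelial markers, without and with the block, Lama3 was at 0.039 and 0.082, Lama5 at 0.10 and 0.081, Lamb1 at 0.088 and 0.082, Lamc1 at 0.15 and 0.14, Itga3 at 0.054 and 0.054 and Itgb4 at 0.023 and 0.049. With the block and no experiment 4, Lama5 was at 0.037, Lamc1 at 0.062 and Itgb4 at 0.0041, and after quantile normalisation Lamc1 was at 0.019. Leaving out 1 experiment or library gave −0.188 to 0.061 for Lama5, −0.167 to 0.0040 for Lamb1 and −0.093 to 0.055 for Lamc1, above 0 in each only without experiment 4. The cause was not tested.

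Leaving out 1 experiment or library, with or without the block, gave 430 to 7022 genes with T cells added, 0 to 207 on collagen I, 0 to 103 on collagen IV, 0 to 7 on fibronectin, 0 to 5 on vitronectin, 0 to 338 in the F test in co-cultures and 0 to 806 in 4T1 alone. Of the 8 genes it gave 0 to 5 with T cells added and 0 to 2 on collagen IV and on fibronectin. Depth limits these 8 genes little, with 223 or more reads behind each value. edgeR with the block, the epithelial scaling with the block and the leave-outs with the block were chosen after seeing the data.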
